A study of Rosa hybrid cultivar with 39 samples.

Results

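A set of 138 rose petal genes had low average transcript levels in flowers held in gas and levels at least 2-fold higher in every group of flowers whose stems stood in water or in a solution. The members were chosen by their measured values in 12 conditions. A gene entered with an average of at least 1 FPKM (mapped fragments scaled to transcript length and library size) in all 10 conditions in solution. The lowest of these 10 values plus 1 had to be at least 2 times the higher of the values in 1-MCP and AIR plus 1, and 1-MCP and AIR had to lie within 1 of each other on the log2 scale. Of 30208 gene identifiers, 11684 had at least 1 FPKM in all 10 solution conditions, and the 138 members make up 1.18% of these. The mirrored rule, with both gases at least 2-fold above the highest solution value, was met by 154 genes. The low level in gas is therefore what defines the set, and the values in gas below are a description with no test.

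The study treated cut flowers of the rose cultivar 'Samantha' for 24 h and sequenced RNA of the outer petals, in 39 samples of 13 conditions with 3 replicates each, every replicate pooling petals of several flowers. In the gas treatments, flowers were kept in 1-MCP (1-methylcyclopropene) at 2 µL per L, in ethylene (ET) or in regular air (AIR), with sodium hydroxide to take up carbon dioxide. In the solution treatments, stems stood in 100 µM NAA, 100 µM 2,4-D, 5 µM BR (brassinosteroid), 100 µM 6-BA, 100 µM ABA (abscisic acid), 80 µM GA (gibberellic acid), 50 µM JA (jasmonic acid), 100 µM SA (salicylic acid) or 80 µM AgNO3 (silver nitrate), or in deionized water alone (H2O). How the stems of flowers in gas were supplied with water, and which chambers and days were used for each set, is not stated. Temperature, relative humidity and day and night periods are given with the solution treatments and are not stated for the flowers in gas. Gas, enclosure, water supply, light, temperature, humidity and other handling therefore cannot be told apart for this gene set.

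Ethylene is a gaseous hormone that is perceived by membrane receptors and is known in roses for its part in petal opening, senescence and shedding. 1-MCP occupies these receptors and blocks them, and silver ions also block the perception of ethylene. 1-MCP and AgNO3 thus share a target by different routes, one given as a gas and the other in solution. NAA and 2,4-D are synthetic auxins, and 6-BA is a synthetic cytokinin.

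Only 1 average FPKM per transcript and condition is given in the data, so the spread between replicates cannot be had from these values and no difference could be tested. The values carry no read counts, and the read numbers that the study lists per library were not used here. The values listed for ET equal those of AIR at all 38170 transcripts. They were not used, and whether the shared values come from flowers in air or in ethylene cannot be told from them. The total FPKM of a condition lay between 744948 in AIR and 962395 in ABA. The median log2 ratio to H2O over genes differed from 0 by at most 0.0608, in GA. The data pair the identifiers with no gene names, so neither the roles of the members nor the petal origin of the RNA could be checked against known genes.

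Across the members, the median level was 8.05 FPKM in 1-MCP and 7.35 FPKM in AIR, against 37.0 FPKM in H2O. For all genes of at least 1 FPKM in the 10 solution conditions, the medians were 14.04 FPKM in 1-MCP, 14.1 FPKM in AIR and 13.5 FPKM in H2O. The quartiles of the members' H2O levels were 15.5 and 116 FPKM, and those of all such genes 5.01 and 41.5 FPKM. The rule favours genes that are high in solution, so this difference in level is in part its product. At least 100 FPKM in H2O was reached by 39 members. In gas, 20 members lay under 1 FPKM in both conditions and 54 still had at least 10 FPKM in both, so that most of the set was lowered and not absent. In bulk petal RNA, fewer cells that express a gene and less RNA per cell cannot be told apart.

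The members together held a small part of all petal transcript in gas and a larger one in every solution. Their summed level was 4561 FPKM in 1-MCP, which is 0.556% of that condition's total, and 3770 FPKM in AIR, or 0.506%. In H2O the sum was 19966 FPKM, or 2.23%, the lowest share among the 10 solution conditions. The highest share, 2.82%, was that of ABA with a sum of 27099 FPKM. The sum in 1-MCP was 22.8% of that in H2O, and the sum in AIR 18.9%. A few genes carry much of these sums, since the 10 members with the highest H2O level made up 52.9% of the H2O sum.

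The size of the separation is given by the gap, the log2 ratio of the lowest solution value plus 1 to the higher gas value plus 1. It had a median of 1.45, with quartiles of 1.17 and 1.84, a lowest value of 1.00 set by the rule and a highest value of 5.79. A gap of at least 2 was reached by 27 members, of at least 3 by 7, of at least 4 by 3 and of at least 5 by 1. The ratio to H2O had a median of -1.97 on the log2 scale in 1-MCP and of -2.14 in AIR, where the medians of all 11684 genes were 0.03 and 0.03. Most members therefore sat close to the threshold, and a short tail of genes was far from it.

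**Figure D1:**
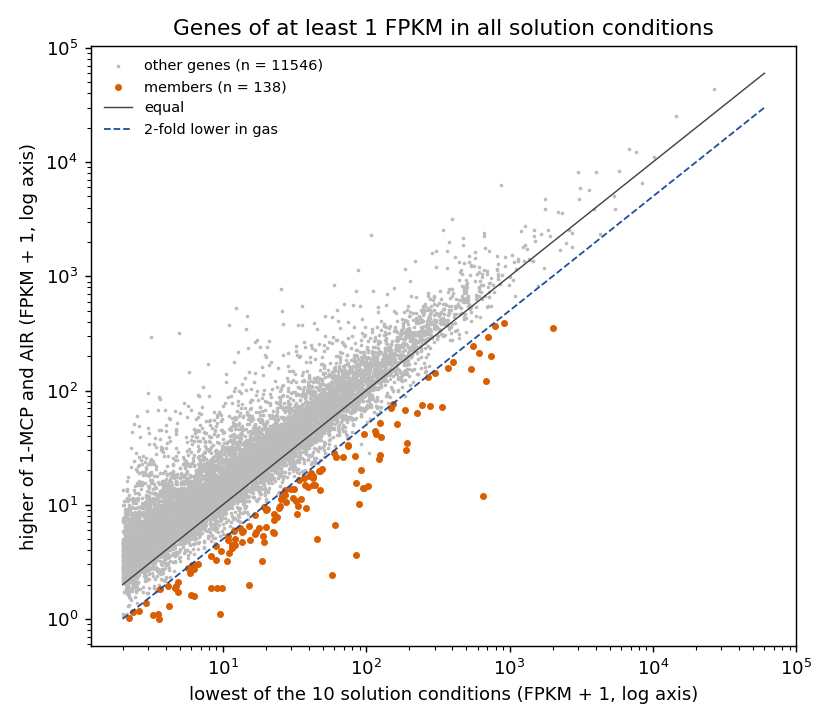
Each point is 1 gene of at least 1 FPKM in all 10 solution conditions, with the lowest of its 10 solution averages on the horizontal axis and the higher of its 1-MCP and AIR averages on the vertical axis, both as FPKM + 1 on log axes. The 138 members (orange) lie below the dashed line of a 2-fold lower level in gas because the rule placed them there, and 1 of them, near 657 FPKM in solution and 10.9 FPKM in gas, lies far below the rest.

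The gene farthest from the threshold was LOC112182180, at NC_037088.1:53303942-53312711. Its averages were 10.9 FPKM in 1-MCP and 8.44 FPKM in AIR, against a lowest value of 657, a median of 889 and a highest value of 1181 FPKM over the 10 solution conditions. H2O held the lowest of these values and JA the highest, with GA at 1143, AgNO3 at 1037 and BR at 1024 FPKM. A gene among the most abundant of the set in water was thus below the median of all these genes in both gases, with a gap of 5.79.

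LOC112184895 and LOC112184860 followed, and both belong to the locus NC_037088.1:19767967-19868832. LOC112184895 had 1.24 FPKM in 1-MCP and 1.41 FPKM in AIR, against a lowest value of 56.9, a median of 103 and a highest value of 188 FPKM in solution, with H2O lowest and BR highest and a gap of 4.59. LOC112184860 had 1.30 FPKM in 1-MCP and 2.60 FPKM in AIR, against a lowest value of 83.6 in AgNO3, a median of 123 and a highest value of 171 FPKM in 6-BA, with 114 FPKM in H2O and a gap of 4.55. The treatments that held the highest and the lowest value differed between these genes although their low level in gas was alike.

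LOC112167116, at NC_037092.1:3621975-3623041, had 3.97 FPKM in 1-MCP and 1.93 FPKM in AIR, against 44.6 in SA, a median of 61.5 and 119 FPKM in ABA, with 59.0 FPKM in H2O. LOC112189044, at NC_037089.1:79303095-79305229, had 5.69 FPKM in 1-MCP and 4.30 FPKM in AIR, against 60.1 in H2O, a median of 99.7 and 213 FPKM in BR. LOC112194722, at NC_037090.1:11312394-11313415, had 6.23 FPKM in 1-MCP and 9.23 FPKM in AIR, against 87.9 in NAA, a median of 133 and 229 FPKM in BR, with 95.4 FPKM in H2O. The gaps of these genes were 3.20, 3.19 and 3.12, and in all of them a solution treatment, BR or ABA, stood well above water.

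Members under the set's median H2O level of 37.0 FPKM could also be separated widely. LOC112189410, at NC_037089.1:23455372-23457257, had 0.0927 FPKM in 1-MCP and 0.107 FPKM in AIR, against 8.51 in JA, a median of 16.4 and 38.3 FPKM in ABA, with 16.2 FPKM in H2O and a gap of 3.10. LOC112185974, at NC_037088.1:13977717-14091075, had 0.966 FPKM in 1-MCP and 0.0528 FPKM in AIR, against 14.2 in H2O, a median of 18.1 and 20.5 FPKM in AgNO3, with a gap of 2.95. At such levels the 1 that is added to each value holds the ratio down, so the gaps of these genes understate their separation. The locus of LOC112185974 is shared by 4 identifiers.

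The next genes by gap kept a moderate level in gas. LOC112187553 had 13.5 FPKM in 1-MCP and 12.9 FPKM in AIR, against 102 to 147 FPKM in solution with 106 FPKM in H2O. LOC112195178 had 13.1 FPKM in 1-MCP and 7.14 FPKM in AIR, against 95.05 to 214 FPKM in solution with 114 FPKM in H2O. LOC112192949 had 7.38 FPKM in 1-MCP and 13.1 FPKM in AIR, against 94.1 to 228 FPKM in solution with 164 FPKM in H2O. Which gas was the lower thus differed from gene to gene. LOC112197714 had 25.6 FPKM in 1-MCP and 29.3 FPKM in AIR, against 188 to 242 FPKM in solution with 190 FPKM in H2O, which is 1 of the narrowest solution ranges of the set. The gaps of these genes lay between 2.64 and 2.82. From LOC112174624 to LOC112164821, the remaining members among the 20 with the widest separation had gaps between 2.27 and 2.54.

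**Figure D2:**
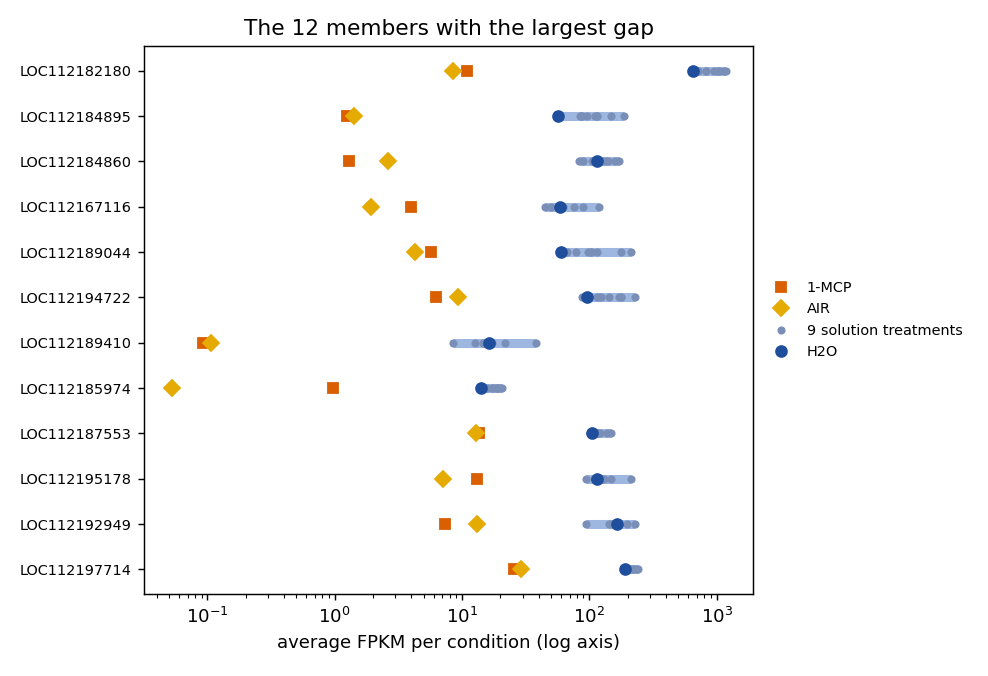
Average FPKM (log axis) of the 12 members with the largest gap, 1 row per gene, in 1-MCP (square), AIR (diamond), the 9 solution treatments (small dots on a bar from lowest to highest) and H2O (large dot). The gas values of LOC112182180 are 10.9 and 8.44 FPKM and its solution values start at 657 FPKM, and in LOC112185974 the gases lie farther apart than in any other gene shown, at 0.966 and 0.0528 FPKM.

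The most abundant members show the same separation at high level. LOC112185713, at NC_037088.1:60961852-60963290, had the highest H2O level of the set, with 349 FPKM in 1-MCP and 250 FPKM in AIR, against 2011 in AgNO3, a median of 2448 and 3703 FPKM in BR, with 2745 FPKM in H2O and a gap of 2.52. LOC112166554, at NC_037092.1:79604322-79607085, had 120 FPKM in 1-MCP and 116 FPKM in AIR, against 684 in 6-BA, a median of 883 and 1377 FPKM in BR, with 739 FPKM in H2O and a gap of 2.50. LOC112182386 had 201 FPKM in 1-MCP and 129 FPKM in AIR, against 739 to 1237 FPKM in solution with 907 FPKM in H2O. These genes remained far above most petal genes even in gas.

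Other abundant members were closer to the threshold. LOC112167509 had 280 FPKM in 1-MCP and 294 FPKM in AIR, against 706 to 1166 FPKM in solution, with H2O as the highest condition. LOC112167154 had 175 FPKM in 1-MCP and 140 FPKM in AIR, against 401 to 1043 FPKM in solution, again with H2O highest and with BR lowest. LOC112196729 had 385 FPKM in 1-MCP and 387 FPKM in AIR, against 910 to 2052 FPKM in solution with 960 FPKM in H2O. Their gaps were 1.26, 1.19 and 1.23. LOC112199953 had 367 FPKM in 1-MCP and 281 FPKM in AIR, against 794 to 1184 FPKM in solution with 827 FPKM in H2O, and a gap of 1.11. The ratio of LOC112167154 to H2O was -2.57 in 1-MCP and -2.89 in AIR on the log2 scale, far past its gap, because BR held the lowest solution value.

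LOC112176279 was listed at 0 in both 1-MCP and AIR, against 2.61 in AgNO3, a median of 5.42 and 15.4 FPKM in H2O. Its locus, NC_037094.1:9198300-9198513, spans 214 bases and is the shortest of the set. A value of 0 in a table without counts can be a failed estimate, so no ratio to gas is given. LOC112184904 was listed at 0 in 1-MCP, with 0.0169 FPKM in AIR, against 1.21 in H2O, a median of 1.70 and 3.39 FPKM in GA, the lowest H2O level of the set.

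The threshold separates neighbours that hardly differ. Just inside it, LOC112174349 had 76.0 FPKM in 1-MCP and 69.5 FPKM in AIR, against 153 to 264 FPKM in solution with 197 FPKM in H2O. Just outside, LOC112200486 had 22.01 FPKM in 1-MCP and 18.1 FPKM in AIR, against 44.96 to 77.9 FPKM in solution with 44.96 FPKM in H2O. The other neighbours inside were LOC112164971 and LOC112168369, and those outside were LOC112168279 and LOC112193313. The gaps of all 6 lay between 0.99 and 1.01.

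The set can also be read from the larger list of genes that were low in AIR. In AIR, 942 genes were at least 2-fold lower than in H2O, 6.63% of the 14213 genes with at least 1 FPKM in either, and in 1-MCP 668 genes were, 4.75% of 14060. Both comparisons share H2O. The rule fixes that all 138 members are in both lists, where they make up 14.6% of the 942. Of the 942 genes, 522 were also lower in 1-MCP, and 145 of these were lower in both gases than in all 10 solution conditions. Another 78 missed 1 solution condition only, and that condition was BR for 38 genes, ABA for 17, JA for 9, AgNO3 for 6, SA for 5, NAA for 2 and GA for 1. Over all 11684 genes, BR was the lowest solution condition in 16.4% and ABA in 22.9%. These shares are not like the counts among the 78. Those genes were first chosen as low against H2O, so H2O could not be the condition missed. They also had no minimum of 1 FPKM in all 10 solution conditions. No conclusion about BR or ABA is drawn from this step.

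Of the 145 genes past the 2-fold ratio, 7 were left out by the limit on the difference between 1-MCP and AIR, and in all 7 the level was higher in 1-MCP. LOC112185736 had the widest such difference, with 9.85 FPKM in 1-MCP and 2.53 FPKM in AIR, against 33.7 to 64.6 FPKM in solution with 50.02 FPKM in H2O. LOC112190255 had 27.4 FPKM in 1-MCP and 10.002 FPKM in AIR, against 103 to 276 FPKM in solution with 146 FPKM in H2O. The log2 ratios of 1-MCP to AIR in these 7 genes ran from 1.01 to 1.62.

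Among the members, a smaller difference of the same direction was common. The level was higher in 1-MCP than in AIR in 98 members (71.0%), lower in 39 and equal in the gene listed at 0 in both. Of all 11684 genes, 5784 (49.5%) were higher in 1-MCP. The median log2 ratio of 1-MCP to AIR was 0.20 over the members and -0.00 over all these genes. It reached 0.5 or more in 28 of the 138 members and -0.5 or less in 9 of the 138, against 7.70% and 5.10% of all these genes. The rule bounds this ratio on both sides and uses both values, and no test of the difference was possible.

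LOC112165291 had the highest ratio of 1-MCP to AIR, 0.93, with 49.9 FPKM in 1-MCP and 25.8 FPKM in AIR, against 162 to 236 FPKM in solution with 173 FPKM in H2O. LOC112192789, a member of high level, had 72.5 FPKM in 1-MCP and 44.0 FPKM in AIR, against 280 to 743 FPKM in solution with 634 FPKM in H2O. LOC112188694 had 7.30 FPKM in 1-MCP and 3.83 FPKM in AIR, against 21.8 to 76.7 FPKM in solution with 59.2 FPKM in H2O. These genes were thus somewhat higher in 1-MCP than in AIR and far under the level of any solution. LOC112176521 had the lowest ratio, -0.97, with 6.61 FPKM in 1-MCP and 13.9 FPKM in AIR, against 43.3 to 112 FPKM in solution with 49.2 FPKM in H2O.

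**Figure D3:**
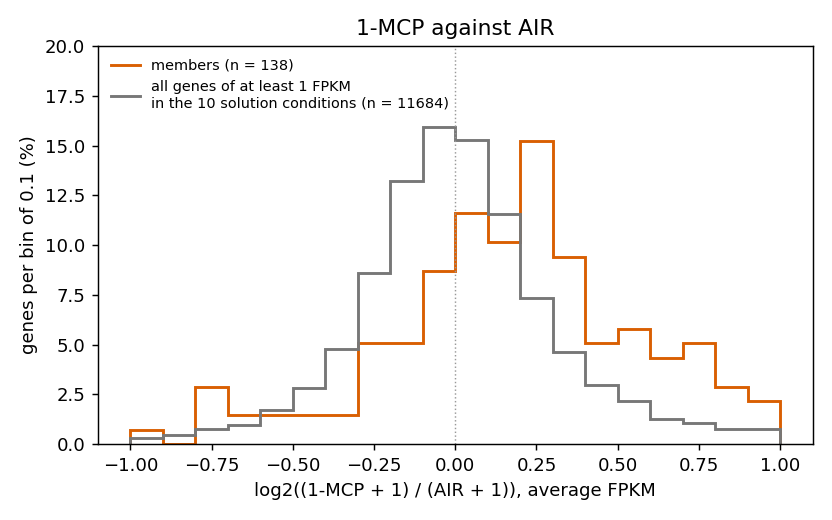
Share of genes (vertical axis, %) in bins of 0.1 of the log2 ratio of 1-MCP to AIR (horizontal axis), for the 138 members (orange) and for all 11684 genes of at least 1 FPKM in the 10 solution conditions (grey). The grey distribution centres at its median of -0.00 and the members are displaced to the right, with a median of 0.20, within the limits of -1 and 1 that the rule sets.

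Within solution, the members were far from constant. The range of a member over the 10 conditions, from lowest to highest on the log2 scale, had a median of 1.02, with 0.30 as the smallest and 3.40 as the largest. The median over all 11684 genes was 0.81. The 1 added to each value narrows the ranges of low genes most, and the members had the higher levels. Part of this difference can therefore reflect level. The range was smaller than the gap in 109 members and not smaller in 29. The smallest range was that of LOC112196043, with 3.12 to 4.07 FPKM in solution and 3.12 FPKM in H2O. It had 0.960 FPKM in 1-MCP and 0.963 FPKM in AIR. At such a level the 1 that is added to each value narrows the range, so its rank rests in part on that. LOC112197714 and LOC112173010 came next with ranges of 0.36 and 0.38. In these genes the gas values stood apart from 10 nearly equal ones.

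ABA held the highest of the 10 solution values in 45 members (32.6%, against 26.9% of all 11684 genes) and BR in 43 (31.2% against 20.8%). The lowest value was in BR for 31 members (22.5% against 16.4%) and in H2O for 24 (17.4% against 10.04%). ABA was lowest in 19 members (13.8%), less often than in all these genes (22.9%), and SA in 19 (13.8% against 13.3%). BR thus took either end somewhat more often in the set than in all these genes, and ABA more often the upper and less often the lower end. These shares were not tested, and the rule uses the lowest value.

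Each solution treatment was then set against H2O, with a ratio of at least 2-fold in FPKM plus 1 as a description. These 9 comparisons share the H2O average, and the rule bounds the members' solution values from below. In ABA, 15 members were higher and 3 lower than in H2O, 10.9% and 2.17% of the set, where of all genes measured in ABA or H2O at 1 FPKM or more, 3.24% were higher and 1.9% lower. Among the 11684 genes of at least 1 FPKM throughout solution, 2.58% were higher in ABA and 1.51% lower. In BR, 18 members were higher and 9 lower, 13.04% and 6.52% of the set, beside 7.02% and 5.65% of these 11684 genes and 8.7% and 6.03% of all genes. Of the 9 treatments, ABA was the one whose share of higher members lay farthest above the share of all genes, in percentage points.

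For GA, JA, SA and AgNO3 the members' shares of higher genes were not above both of the shares given beside them. Their shares of lower genes were under both, where the rule bounds the solution values from below. The pool from which the members were drawn, the 11684 genes of at least 1 FPKM throughout solution, is given here beside all genes that reached 1 FPKM in the treatment or in H2O. In GA, 10 members (7.25%) were higher, beside 5.93% of the pool and 7.72% of all genes, and 1 was lower (0.725%), beside 3.19% and 3.36%. With conditions scaled to a common median, 5 members in place of 11 were apart in GA. In JA, 8 (5.80%) were higher, beside 4.61% of the pool and 6.17% of all genes, and 2 were lower (1.45%), beside 2.14% and 2.49%. The shares of higher members in GA and JA thus lay above the pool and under all genes. In SA, 5 (3.62%) were higher, beside 5.01% of the pool and 7.7% of all genes, and 2 were lower (1.45%), beside 3.05% and 3%. AgNO3, which like 1-MCP blocks ethylene perception but was given in solution, had 5 members (3.62%) higher, beside 5.37% of the pool and 7.93% of all genes, and 2 lower (1.45%), beside 3.08% and 3.06%. The median log2 ratio of AgNO3 to H2O was 0.03 over the members and 0.05 over the pool. That the set was not low in AgNO3 is required by the rule.

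For the auxins and the cytokinin the counts were small in the set and in the pool alike. In NAA, 0 members were higher and 1 lower, beside 1.16% and 0.214% of the pool and 2.3% and 0.325% of all genes. In 2,4-D, 0 were higher and 0 lower, beside 1.40% and 0.402% of the pool and 2.15% and 0.568% of all genes. In 6-BA, 0 were higher and 1 lower, beside 0.633% and 0.180% of the pool and 0.866% and 0.481% of all genes. Shares of this size come to few genes among 138, so these counts are near the background. At any ratio, 93 members (67.4%) were above H2O in 2,4-D, beside 54.9% of the pool, with median log2 ratios of 0.11 and 0.03. Such a share was not particular to 2,4-D. It was above the pool's in ABA (70.3% beside 54.0%), GA (63.8% beside 55.2%), JA (63.8% beside 54.7%) and BR (62.3% beside 53.9%). It was also above in NAA and 6-BA (58.0% in each, beside 55.6% and 49.3%). In SA (49.3% beside 52.5%) and AgNO3 (52.9% beside 53.8%) it was under the pool's. The 1 gene lower in NAA and in 6-BA was LOC112176279, which had 15.4 FPKM in H2O and less than that in all 9 treatments. Its log2 ratio was -1.10 in NAA, -1.08 in 6-BA and -0.999998 in 2,4-D, just short of the threshold. The count of 0 in 2,4-D therefore does not set 2,4-D apart from NAA and 6-BA. Over all treatments, 41 members (29.7%) were 2-fold apart from H2O in at least 1, beside 21.6% of the 11684 genes, and 97 members were apart in none. Of the 41, 20 were apart in 1 treatment only.

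**Figure D4:**
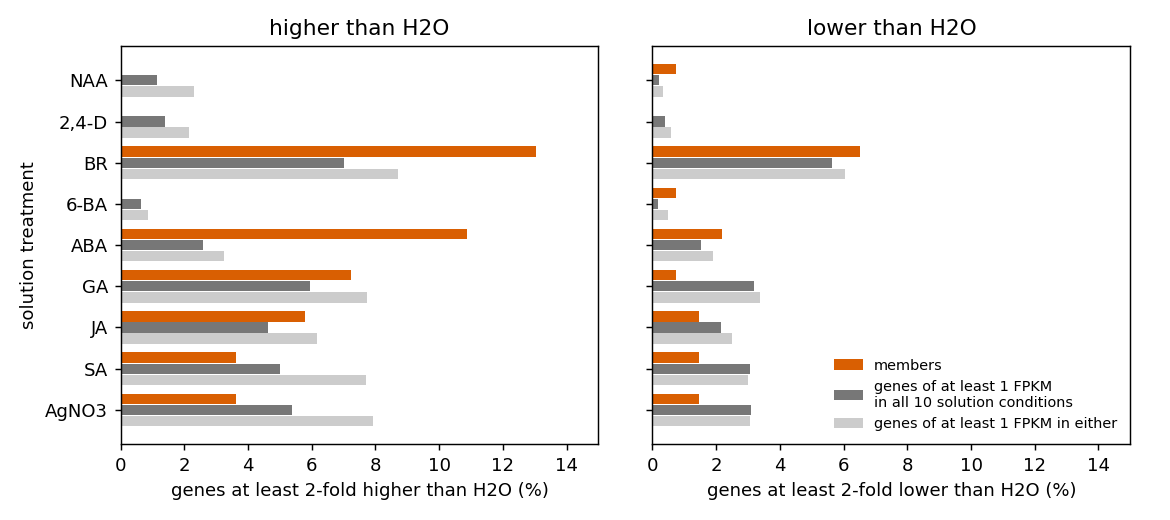
Share (%) of genes at least 2-fold higher (left panel) or lower (right panel) than H2O in each of the 9 solution treatments, for the 138 members (orange), the 11684 genes of at least 1 FPKM in all 10 solution conditions (dark grey) and all genes that reached 1 FPKM in the treatment or in H2O (light grey). The members' bar is longer than both grey ones for higher levels in ABA (10.9% against 2.58% and 3.24%) and BR (13.04% against 7.02% and 8.7%). In 2,4-D no member passes in either direction, with LOC112176279 just short of it at a log2 ratio of -0.999998.

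Single members differed widely within solution. LOC112168369 had 37.4 FPKM in BR, 13.5 FPKM in GA and 11.8 FPKM in JA, against 2.64 FPKM in H2O, which are log2 ratios of 3.40, 1.99 and 1.82 and the highest of the set in these treatments. Its gas values were 0.817 FPKM in 1-MCP and 0.282 FPKM in AIR, and its gap of 1.00 is that between 1-MCP and H2O, its lowest condition in solution. LOC112197495 had 59.5 FPKM in BR and 37.6 FPKM in ABA, against 7.74 FPKM in H2O, at log2 ratios of 2.79 and 2.14. It had 0.868 FPKM in 1-MCP and 0.438 FPKM in AIR.

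The ABA responses with the largest ratios were those of LOC112177044 and LOC112169782. LOC112177044, at NC_037088.1:60152932-60153421, had 354 FPKM in ABA and 122 FPKM in BR, against 58.3 FPKM in H2O, and 16.6 FPKM in 1-MCP and 17.0 FPKM in AIR. LOC112169782, at NC_037093.1:66820608-66821378, had 1897 FPKM in ABA and 224 FPKM in JA, against 334 FPKM in H2O, and 53.2 FPKM in 1-MCP and 62.6 FPKM in AIR. Their log2 ratios of ABA to H2O were 2.58 and 2.50. Among the abundant members, LOC112172425 had 2069 FPKM in ABA, against 887 FPKM in H2O, and LOC112196729 had 2052 FPKM in ABA, against 960 FPKM in H2O.

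In BR, 9 members were lower than in H2O. LOC112182836 had 3.22 FPKM in BR, against 20.7 FPKM in H2O, at a log2 ratio of -2.36, and 0.293 FPKM in 1-MCP and 0.181 FPKM in AIR. LOC112176466 had 3.66 FPKM in BR and 33.9 FPKM in ABA, against 12.3 FPKM in H2O, so that these hormones stood on opposite sides of water at log2 ratios of -1.52 and 1.39. LOC112174624 had 17.8 FPKM in BR and 71.2 FPKM in ABA, against 39.0 FPKM in H2O. LOC112187578 was higher in BR, GA, JA, SA and AgNO3 at log2 ratios of 1.87, 1.42, 1.38, 1.09 and 1.21 and had 24.9 FPKM in ABA, against 28.0 FPKM in H2O. LOC112180490 had the highest ratio of the set in SA, 1.24.

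By position, the members were spread over all 7 chromosomes of RchiOBHm-V2, the genome of the rose 'Old Blush' to which the loci belong. NC_037092.1 held 26 members (18.8%, against 15.05% of the 11684 genes), NC_037088.1 held 24 (17.4% against 11.7%) and NC_037089.1 also 24 (17.4% against 19.7%). NC_037091.1 held 17 (12.3% against 13.4%), NC_037093.1 held 18 (13.04% against 15.6%) and NC_037094.1 also 18 (13.04% against 13.9%). NC_037090.1 held the fewest, 11 (7.97% against 10.6%), and it also held the fewest of the 11684 genes, 1242. These shares were not tested.

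Some members lie at loci that the data give to several identifiers. These were 26 members (18.8%, against 15.7% of the 11684 genes) at 20 loci, and 112 members had a locus of their own. The locus of LOC112184860 and LOC112184895 holds 5 identifiers, of which LOC112184904 is also a member. The non-member LOC112184839 was not low in gas, with 51.8 FPKM in 1-MCP and 30.4 FPKM in AIR, against 19.4 to 42.9 FPKM in solution with 22.4 FPKM in H2O. The remaining identifier, LOC112203230, was listed at 0. How reads were divided among identifiers of 1 locus was not tested, so the values of these genes are less certain than those of genes with their own locus.

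**Figure D5:**
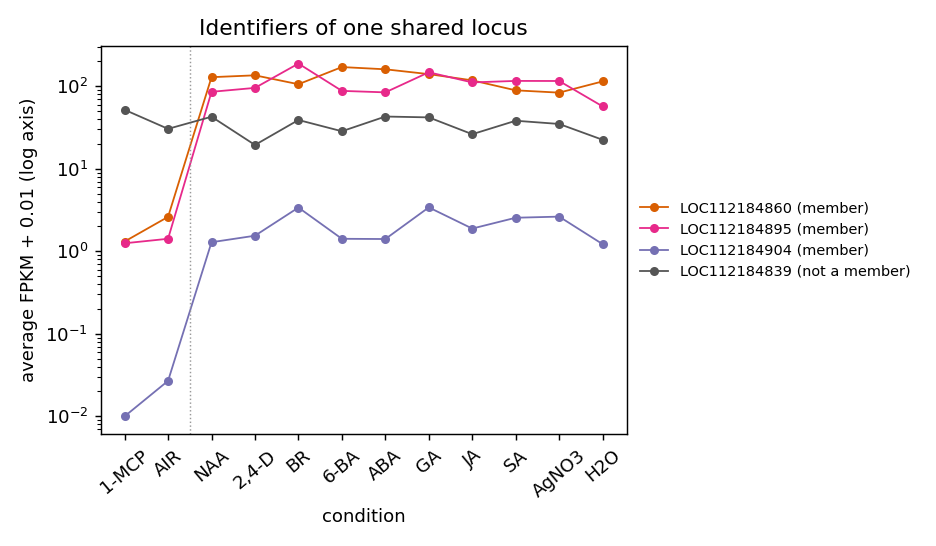
Average FPKM + 0.01 (log axis) in the 12 conditions of 4 identifiers that share the locus NC_037088.1:19767967-19868832, with the gas conditions left of the dotted line. The 3 members lie far lower in 1-MCP and AIR than in solution, while LOC112184839, which is no member, has its highest value, 51.8 FPKM, in 1-MCP.

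The other shared loci held 1 to 3 members. The locus NC_037094.1:28081181-28428271 has 15 identifiers, among them the members LOC112177054, LOC112179737 and LOC112180833. LOC112177054 had 4.63 FPKM in 1-MCP and 3.35 FPKM in AIR, against 21.7 to 45.8 FPKM in solution with 36.5 FPKM in H2O, and LOC112179737 had 18.7 FPKM in 1-MCP and 15.5 FPKM in AIR, against 46.7 to 82.8 FPKM in solution with 74.99 FPKM in H2O. LOC112180833 had 16.3 FPKM in 1-MCP and 11.6 FPKM in AIR, against 35.9 to 87.1 FPKM in solution with 59.95 FPKM in H2O. All 3 had their highest value in GA. LOC112176097 and LOC112176101 share NC_037094.1:30304878-30311706, and both were highest in ABA.

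Identifiers that shared a locus with a member without being one numbered 47, and 21 of them had at least 1 FPKM. Of these, 3 were at least 2-fold lower than H2O in both gases and 0 were higher in both, with medians on the log2 scale of -0.22 in 1-MCP and -0.30 in AIR. Over all genes, members included, 522 of the 14213 with at least 1 FPKM in AIR or H2O were lower in both. The share among the partners was thus larger, but it rests on few genes and was not tested. Among the 3 low partners was LOC112179368, with 86.8 FPKM in 1-MCP and 75.3 FPKM in AIR, against 146 to 299 FPKM in solution with 250 FPKM in H2O. It missed the set because of its levels in AgNO3, the lowest, and in SA, 174 FPKM.

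Members next to each other on a chromosome were few. Among 6 adjacent pairs, 3 share a locus. The others were LOC112193345 and LOC112195178 at a distance of 3553 bases, LOC112165529 and LOC112167860 at 18701 bases, and LOC112174624 and LOC112172425 at 83715 bases. LOC112193345 had 3.96 FPKM in 1-MCP and 2.79 FPKM in AIR, against 14.4 to 30.1 FPKM in solution with 24.6 FPKM in H2O. Of 259 expressed genes next to a member, 5.79% were 2-fold lower in 1-MCP than in H2O, against 4.36% of all expressed genes, and 7.34% were in AIR, against 6.15%. Neighbours that are members themselves, in the 6 pairs above, were left out of these 259, so the shares hold for the other neighbours only. All expressed genes do include the 138 members, which are low in both gases by the rule. Their shares are raised by this, so the 2 sides of each comparison are not alike.

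Most members have 1 transcript in the data, and 24 (17.4%, against 21.4% of the 11684 genes) have several. These 24 hold 58 transcripts, of which 36 had at least 1 FPKM in H2O and 32 of these were at least 2-fold lower in both gases. Only 11 of the 24 have 2 or more transcripts of at least 1 FPKM. In the others the value of a single transcript is nearly the sum that the rule used, so the count of 32 is in large part fixed by the rule. For LOC112184860, 3 transcripts had 0.476, 0.826 and close to 0 FPKM in 1-MCP and 2.22, 0.380 and close to 0 FPKM in AIR, against 90.9, 19.5 and 4.04 FPKM in H2O. The 4 exceptions belong to LOC112166046, LOC112172425, LOC112182299 and LOC112188407.

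LOC112188407 shows how transcripts of 1 gene can differ. Its first transcript had 3.24 FPKM in 1-MCP and 2.76 FPKM in AIR, against 4.45 FPKM in H2O, but 28.5 FPKM in BR and 17.5 FPKM in AgNO3. Its second transcript had 4.90 FPKM in 1-MCP and 5.02 FPKM in AIR, against 16.6 FPKM in H2O, and 16.6 FPKM in BR and 4.52 FPKM in AgNO3. In AgNO3 the second transcript was thus as low as in gas, and the first made up for it in the sum. This was not particular to AgNO3. In SA the second transcript had 4.93 FPKM and the first 16.1 FPKM, and in GA they had 5.76 and 21.4 FPKM. The loci of members had a median length of 3004 bases, against 3727 bases for the 11684 genes, and of 2539 against 3304.5 bases where a locus had 1 identifier.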

How the data were processed

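The authors sequenced petal RNA of 3 replicates per condition, used TopHat2 to align reads to RchiOBHm-V2 and Cufflinks with Cuffmerge to build transcripts, and obtained FPKM from Cuffdiff, a tool the sample labels name too. The deposited values are condition averages in FPKM, 1 per transcript, in 13 files. No source states how conditions were scaled to each other. The values hold no counts, so the read numbers the study lists per library could not be tied to a value, and no values per replicate were used. No interval, standard deviation, standard error or p-value is given.

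Transcripts that carry the same gene identifier were added up. Ratios are log2 ratios of FPKM plus a pseudocount of 1, which understate the change of low genes. A gene entered a comparison with at least 1 FPKM in either condition and counted as higher or lower at 2-fold. The script for the selection was tested on simulated data with known members.

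The members and lists were chosen with earlier results of these data known. The names to give were set as the 20 members with the largest gap, the 10 with the highest H2O level, the 3 on each side of the threshold and the extremes per treatment. Some of the 20 and some of the extremes are not named in the text. Members at shared or adjacent loci, those with exceptional transcripts, the steadiest genes, the extremes of 1-MCP against AIR and some further examples were named after their values were seen.

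The planned test with limma needs replicate values and could not be run, and a description took its place. Gene lists by product name, markers and promoter motifs could not be applied because no names or sequences were at hand. ET was not analysed here. Alternatives were a pseudocount of 0.1, a minimum of 5 FPKM and none, a ratio of 3, a log2 ratio of 0.5, median scaling, AIR alone and transcripts without summing. Python 3.11.15, numpy 2.4.6, pandas 2.3.3 and matplotlib 3.10.9 were used.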

Additional observations from a re-analysis of the deposited data

How the results depend on the processing

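No paired analysis was possible because the averages carry no replicate numbers, and for the same reason no replicate could be left out. The 138 members became 54 with a ratio of at least 3 and 313 with AIR alone as the gas condition, both by construction. They became 160 with a pseudocount of 0.1, of which 130 were shared with the 138, 135 with median scaling (134 shared) and 121 with a minimum of 5 FPKM. Leaving out 1 solution condition, an alternative chosen after seeing the data, gave 138 to 171 members, with 171 without BR and 152 without ABA. With a log2 ratio of at least 0.5 in place of 2-fold, the members apart from H2O became 108 in any treatment (41 at 2-fold), 7 in NAA, 20 in 2,4-D, 70 in BR, 9 in 6-BA, 46 in ABA, 44 in GA, 49 in JA, 33 in SA and 40 in AgNO3. The count in 2,4-D was 1 with a pseudocount of 0.1 and 1 with median scaling, against 0, and the count in GA was 5 with median scaling, against 11. In 2,4-D, LOC112176279 had a log2 ratio to H2O of -0.999998, at the edge of the threshold. Several members higher in GA were also near it, among them LOC112166572 at 1.02 and LOC112198073 at 1.07. The cause of these changes was not tested. Gaps were recalculated for 30 members, those set to be named by gap, by H2O level and just inside the threshold. Some of these 30 are not named in the text, and other members that are named were not checked. With a pseudocount of 0.1, all 30 stayed at 2-fold or more. With median scaling 28 did, the exceptions being LOC112164971 at 0.99 and LOC112174349 at 0.98. Without LOC112176279, whose locus is the shortest, 40 members were apart from H2O in any treatment.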
